A study of Mus musculus with 15 samples.

Results

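The haemoglobin genes of the mouse and a pair of red cell genes were followed across the libraries of fetal dorsal forebrain. The members were named by symbol: the adult beta-globin genes Hbb-bs and Hbb-bt, the embryonic beta-like genes Hbb-y and Hbb-bh1, the adult alpha-globin genes Hba-a1 and Hba-a2, the embryonic alpha-like gene Hba-x, the haem enzyme gene Alas2 and the anion exchanger gene Slc4a1. They are 9 of the 53337 genes to which the transcripts of the table were assigned, 7 of them globins. The libraries came from embryonic day 18 (E18) dorsal forebrain of C57BL/6J offspring, whose dams carried a subcutaneous osmotic minipump with arginine vasopressin (AVP) or saline from before breeding and throughout gestation, a model of preeclampsia. Males numbered 4 with AVP and 4 with saline, and females 3 with AVP and 4 with saline, with no genetic change in any group. The study took 16 brains from 8 litters and left out 1 AVP female for high variance. By the study's account, the brains within a sex and condition came from independent litters. With 8 litters for 16 brains, male and female libraries of a condition would then share dams. The labels do not tie a library to its litter, so tests over both genders treat all libraries as independent. Expression is given in TPM, a unit scaled by transcript length in which every library has the same total, so that levels may be compared between genes.

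Haemoglobin is a tetramer of alpha-like and beta-like chains, each of which holds a haem. In the mouse, primitive red cells made in the yolk sac use embryonic chains (zeta from Hba-x, epsilon-y from Hbb-y and beta-h1 from Hbb-bh1), and definitive red cells made in the fetal liver use adult chains, a change known as the globin switch. The mouse has no separate fetal globin gene of the human gamma type. Alas2 makes the erythroid form of the enzyme that starts haem synthesis, and Slc4a1 encodes band 3, the anion exchanger of the red cell membrane. The globin transcripts of a brain sample are known to come largely from the blood within it, and young red cells of the fetus still carry much globin mRNA.

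The promoters of the globin genes and of Alas2 are shown because the results turn on which of these genes rose and fell together from library to library. RefSeq entries on GRCm38.p6 were found for 7 of the 9 members, and the 120 bases before the annotated start are printed 5′ to 3′ on the strand of the gene. Capitals mark the motif CACCC, the motif CCAAT, the motif GATAA and the motif TATAA, each searched on both strands. In Hbb-bt a reverse and a forward CCAAT adjoin and run on as 1 block of capitals, as do the 3 reverse CACCC of Alas2.
Hbb-bs: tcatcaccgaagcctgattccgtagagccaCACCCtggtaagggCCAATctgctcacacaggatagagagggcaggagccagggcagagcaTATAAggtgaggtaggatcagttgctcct
Hbb-bt: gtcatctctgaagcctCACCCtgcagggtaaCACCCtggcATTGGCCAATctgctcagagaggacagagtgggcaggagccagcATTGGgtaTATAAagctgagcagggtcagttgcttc
Hbb-y: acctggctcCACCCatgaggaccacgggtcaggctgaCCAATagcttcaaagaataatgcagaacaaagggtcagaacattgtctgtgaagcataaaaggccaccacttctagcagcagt
Hba-a1: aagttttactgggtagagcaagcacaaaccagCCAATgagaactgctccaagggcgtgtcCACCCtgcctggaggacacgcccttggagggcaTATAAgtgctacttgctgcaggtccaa
Hba-x: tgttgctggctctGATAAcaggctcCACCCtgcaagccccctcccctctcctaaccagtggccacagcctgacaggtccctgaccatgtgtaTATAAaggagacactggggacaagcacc
Alas2: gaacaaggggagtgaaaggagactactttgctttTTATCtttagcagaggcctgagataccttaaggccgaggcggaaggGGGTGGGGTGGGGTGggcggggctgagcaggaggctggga

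These windows lie at chr7:103827929-103828048 (Hbb-bs), chr7:103813924-103814043 (Hbb-bt) and chr7:103853208-103853327 (Hbb-y) on the minus strand, and at chr11:32283552-32283671 (Hba-a1), chr11:32276480-32276599 (Hba-x) and chrX:150547297-150547416 (Alas2) on the plus strand. Hbb-bh1 lies at chr7:103841637-103843164 and Slc4a1 at chr11:102348824-102366203, both on the minus strand. The beta-like genes thus stand in 1 cluster on chromosome 7 and the alpha-like genes in another on chromosome 11. CACCC, the letters of a site that the erythroid factor Klf1 is known to bind, was in all 6 windows shown and in 31.7% of the windows of 32851 promoters of the same length. CCAAT was in every window shown except those of Hba-x and Alas2, against 21.3% of all promoters, and TATAA was in every window shown except those of Hbb-y and Alas2, against 11.9%. GATAA, the letters of a site of Gata1, was in the windows of Hba-x and Alas2, against 10.5% of all. The motifs CACCC with CCAAT as well as TATAA stood together in the windows of Hbb-bs, Hbb-bt and Hba-a1 and in 0.688% of all promoters. The window of Hba-a2 at chr11:32296372-32296491 was identical to that of Hba-a1 over 117 of 117 bases once shifted by 3, whereas Hbb-bs and Hbb-bt were identical at 88 of 119 bases. These matches describe letters and no binding was measured.

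The adult genes of each pair were close to identical, which limits how well their reads can be told apart. Over the 444 coding bases of their main transcripts, Hbb-bs and Hbb-bt differed at 1 base, C417T, with Hbb-bs given first and positions counted from 1 at the A of the start codon. Over 429 coding bases, Hba-a1 and Hba-a2 also differed at 1 base, C381T, with Hba-a1 given first. The stretch around each difference is shown with the differing base in capitals, since only reads over such places, or over the less similar ends of the transcripts, can be assigned to 1 gene.
Hbb-bs, coding bases 385 to 444: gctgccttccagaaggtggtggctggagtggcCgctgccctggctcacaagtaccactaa
Hbb-bt, coding bases 385 to 444: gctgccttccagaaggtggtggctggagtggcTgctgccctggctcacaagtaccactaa
Hba-a1, coding bases 351 to 410: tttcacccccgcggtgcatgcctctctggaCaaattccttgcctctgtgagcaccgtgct
Hba-a2, coding bases 351 to 410: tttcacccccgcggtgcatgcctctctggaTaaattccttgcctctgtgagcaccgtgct

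Of the 31-base words in the Hbb-bs transcript, 66.9% also occurred in Hbb-bt, and of those in Hba-a2, 91.0% also occurred in Hba-a1. The split within each adult pair is therefore uncertain, while the sum of a pair does not depend on it. Hbb-y shared 74.3% of coding bases with Hbb-bs and no 31-base word, and Hba-x shared 62.0% of coding bases with Hba-a1 and no 31-base word, so the embryonic genes could be told apart from the adult ones.

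All libraries carried markers of the labelled tissue: Neurod6, a factor of pyramidal neurons, ranged from 471 to 728 TPM. Between 14845 and 15897 genes reached 1 TPM in a library. In 14 of the 15 libraries Xist and the Y-linked genes matched the labelled gender. In the library labelled saline male 3, Xist was at 266 TPM and the Y-linked genes summed to 0.489 TPM. It was kept under its label, and the differences of the measured members in males are also given without it. TPM values do not hold the depth of the single libraries, so no counting interval is given.

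Adult globin was abundant in every library. Hbb-bs, the major adult beta chain here, measured 1609, 2760, 1537 and 4862 TPM in AVP males 1 to 4 and 1211, 3368, 1791 and 1746 TPM in saline males 1 to 4. In females it measured 3642, 2334 and 6768 TPM with AVP and 1035, 2446, 2813 and 1650 TPM with saline. The highest values were those of AVP female 3 and AVP male 4, the lowest those of saline female 1 and saline male 1, and the AVP and saline values overlapped in both genders. By its mean over libraries, Hbb-bs stood at rank 27 among all genes.

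Hba-a2, the more abundant alpha gene, measured 802, 1493, 898 and 2705 TPM in AVP males and 641, 2008, 1045 and 953 TPM in saline males. It measured 1953, 1540 and 3690 TPM in AVP females and 634, 1548, 1514 and 944 TPM in saline females. Its order across libraries followed that of Hbb-bs closely, with the same pair of libraries at the top.

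Hba-a1, the other adult alpha gene, measured 527, 898, 508 and 1567 TPM in AVP males and 424, 1182, 632 and 555 TPM in saline males. In females it measured 1161, 867 and 1994 TPM with AVP and 404, 857, 920 and 559 TPM with saline. Hbb-bt, the second adult beta gene, measured 271, 394, 235 and 896 TPM in AVP males and 174, 560, 251 and 294 TPM in saline males. In females Hbb-bt measured 622, 379 and 1189 TPM with AVP and 165, 374, 449 and 270 TPM with saline. The AVP and saline values of both genes overlapped in each gender. The order Hbb-bs, Hba-a2, Hba-a1, Hbb-bt held in 15 of 15 libraries, with median ratios between neighbours of 1.80, 1.69 and 2.11.

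**Figure D1:**
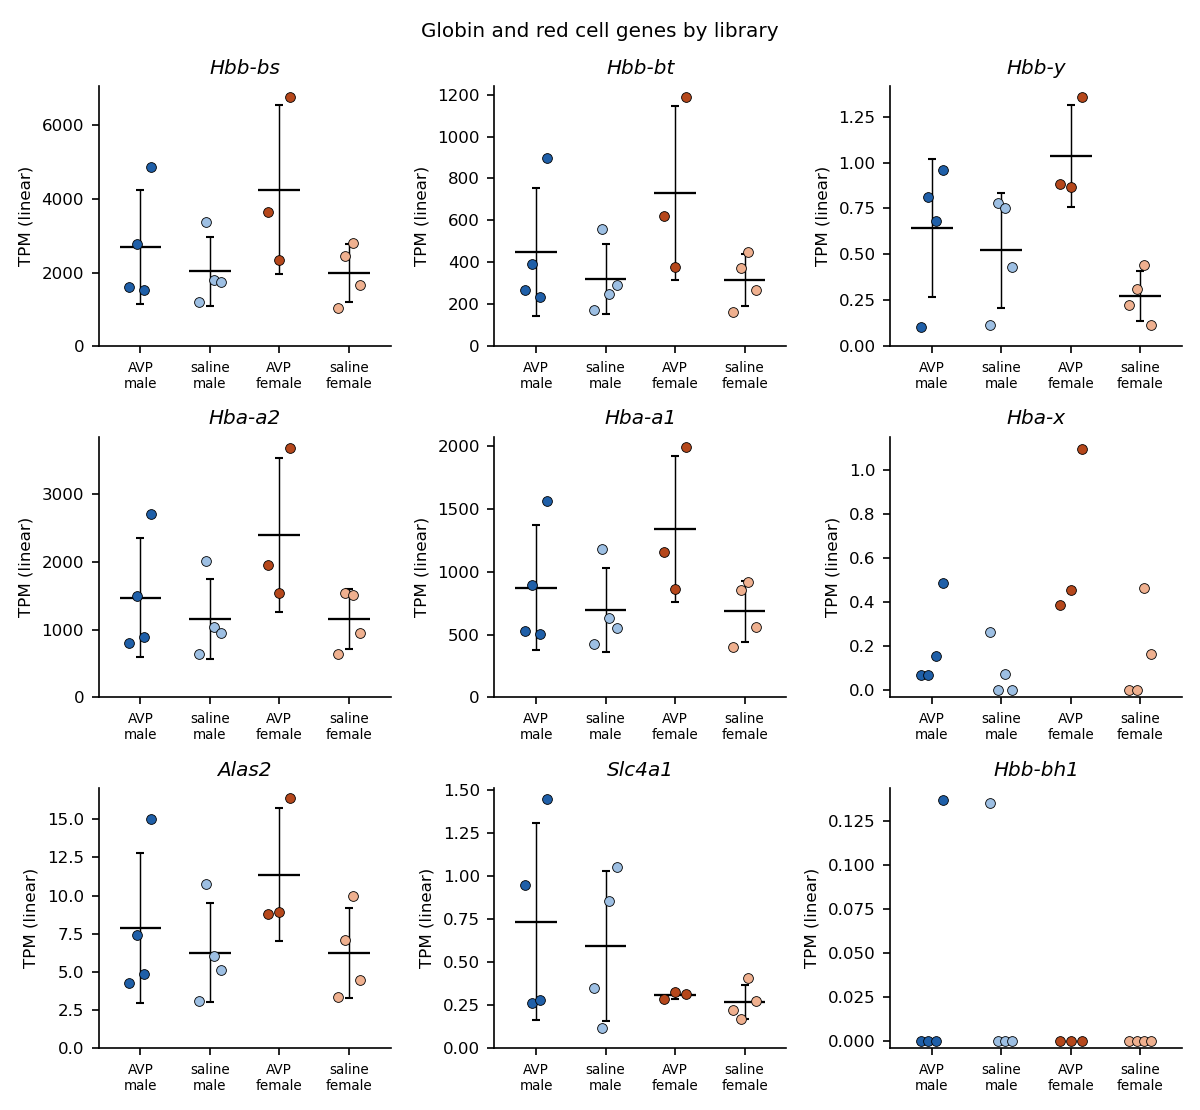
TPM of each member on a linear axis, 1 point per library, in the 4 groups named below each panel; the horizontal line and bar are the mean and SD, left out for Hba-x and Hbb-bh1, which are listed at 0 in some libraries. The adult globins and Alas2 share their highest points, AVP female 3 and AVP male 4, and Hbb-y is the member whose 3 AVP females (0.865 to 1.35 TPM) all lie above the 4 saline females (0.116 to 0.440 TPM).

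The summed TPM of the 7 globin genes was taken as the measure of blood content. It was 3209, 5547, 3179 and 10032 TPM in AVP males and 2450, 7118, 3720 and 3548 TPM in saline males. It was 7379, 5121 and 13643 TPM in AVP females and 2237, 5225, 5697 and 3423 TPM in saline females. The lowest library thus gave 0.224% and the highest 1.36% of its TPM to globin. The group means were 5492 ± 3224 TPM (SD, n = 4) in AVP males, 4209 ± 2019 TPM (SD, n = 4) in saline males, 8714 ± 4415 TPM (SD, n = 3) in AVP females and 4146 ± 1606 TPM (SD, n = 4) in saline females. The mean of the AVP group was 1.30 times that of the saline group in males and 2.10 times in females, and the ranges overlapped in both genders. Without AVP male 4 the AVP male mean was 3978 TPM, below the saline male mean. Without the library labelled saline male 3 the saline male mean was 4372 TPM. In bulk tissue, fewer red cells and less globin mRNA per red cell cannot be told apart.

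**Figure D2:**
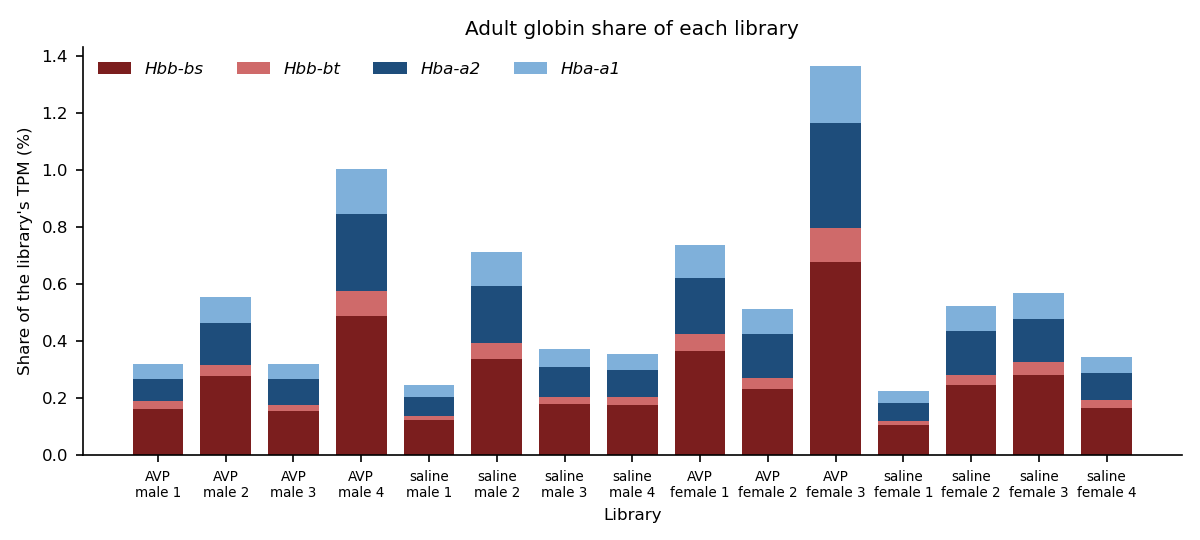
Share of each library's TPM (linear axis, percent) taken by the 4 adult globin genes, stacked, for the 15 libraries in their groups. The bars reach from 0.224% in saline female 1 to 1.36% in AVP female 3, and the proportions of the 4 genes within a bar change little.

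The embryonic globins were present at traces. Hbb-y, the epsilon-like chain of primitive red cells, measured 0.105, 0.815, 0.684 and 0.962 TPM in AVP males and 0.118, 0.782, 0.755 and 0.433 TPM in saline males. It measured 0.881, 0.865 and 1.35 TPM in AVP females and 0.226, 0.309, 0.440 and 0.116 TPM in saline females. The males overlapped over nearly the whole range, whereas each AVP female lay above each saline female.

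Hba-x, which encodes the zeta chain, measured 0.0690, 0.0676, 0.156 and 0.486 TPM in AVP males, and in saline males 0.264 and 0.0750 TPM with saline males 2 and 4 listed at 0. In AVP females it measured 0.384, 0.455 and 1.09 TPM, and in saline females 3 and 4 it measured 0.465 and 0.163 TPM, with saline females 1 and 2 listed at 0. The highest value was again in AVP female 3, and the groups overlapped in both genders. Hbb-bh1 was listed at 0 in 13 of 15 libraries and measured 0.137 TPM in AVP male 4 and 0.135 TPM in saline male 1. The mean of Hbb-y over libraries was 0.590 ± 0.373 TPM (SD, n = 15) against 2638 ± 1537 TPM (SD, n = 15) for Hbb-bs. Hbb-y was above Hba-x in 12 of 15 libraries, and Hbb-y and Slc4a1 had no fixed order, with Hbb-y higher in 9 of 15.

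Of the 2 red cell genes, Alas2 was measured well and Slc4a1 was near the limit. Alas2 measured 4.26, 7.42, 4.89 and 14.995 TPM in AVP males and 3.09, 10.8, 6.04 and 5.12 TPM in saline males. It measured 8.77, 8.94 and 16.4 TPM in AVP females and 3.39, 7.07, 9.97 and 4.47 TPM in saline females. These values had their highest points in the same libraries as the adult globins. Slc4a1 measured 0.948, 0.263, 0.282 and 1.44 TPM in AVP males and 0.350, 0.118, 0.854 and 1.05 TPM in saline males. In AVP females Slc4a1 measured 0.285, 0.327 and 0.313 TPM, and in saline females 0.221, 0.173, 0.405 and 0.273 TPM. AVP female 3, with the most globin of all, was thus in the middle of the Slc4a1 values.

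Other annotated haemoglobin genes fell into 2 kinds. Hbb-bh0, Hbb-bh2, Hbb-bh3, Hba-ps3 and Hba-ps4, which are pseudogenes or genes of unclear use, were listed at 0 in all 15 libraries. The theta-like genes were present in every library, Hbq1b at 2.55 to 9.13 TPM and Hbq1a at 0.630 to 4.55 TPM, and Hbq1b was higher than Hbq1a in 15 of 15. Neither followed the adult globins, as is shown next.

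The question of whether these transcripts shared 1 source was approached through their covariation, on the scale of log2(TPM + 0.5). Over the 15 libraries the level of Hbb-bs was compared with those of 9 other genes; both values of a point come from the same library, so anything that acts on a whole library is shared. Hba-a1 correlated with Hbb-bs at r = 0.994 (rho = 0.989), Hbb-bt at r = 0.993 (rho = 0.971) and Hba-a2 at r = 0.990 (rho = 0.964). Alas2, which is not a globin, correlated at r = 0.964 (rho = 0.946). The permutation p of each of these was 1e-05 for both measures, the smallest that 100000 permutations can give, and 2.25e-05 after Benjamini-Hochberg adjustment over the 9 relations. Of the 31-base words in Hbb-bt, 59.4% also occur in Hbb-bs, so the division of shared reads enters the relation of that pair. The size of that part was not tested. Without the 2 libraries farthest from the median of Hbb-bs, r stayed between 0.953 for Alas2 and 0.993 for Hba-a1. It stayed between 0.972 and 0.993 within the run of samples numbered S1 to S8, and between 0.966 and 0.995 within S13 to S20.

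The embryonic genes followed less tightly. Hbb-y correlated with Hbb-bs at r = 0.776 and rho = 0.804, with adjusted permutation p of 0.00115 and 0.0009. Its r was 0.685 without the 2 farthest libraries, 0.698 after the mean of each group was taken away, 0.869 within S1 to S8 and 0.689 within S13 to S20. Hba-x correlated at r = 0.648 (adjusted permutation p = 0.0134) and rho = 0.451 (adjusted permutation p = 0.139). The r of Hba-x was 0.348 without the 2 libraries farthest in Hbb-bs, so the pooled relation rested on those libraries. Within the runs it was 0.138 for S1 to S8 and 0.893 for S13 to S20.

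The correlation of Slc4a1 with Hbb-bs did not pass the threshold: r was 0.0436 and rho 0.0357 (adjusted permutation p = 0.959 and 0.904). Of the mean TPM of Slc4a1, 63.1% came from its protein-coding transcript and 31.3% from 1 transcript not annotated as coding. The relation of the protein-coding transcript alone was not tested. The theta-like genes gave r = 0.0146 for Hbq1a (adjusted permutation p = 0.959) and r = -0.178 for Hbq1b (adjusted permutation p = 0.679), although Hbq1b was measured at levels near those of Alas2. Hbq1b was higher than Alas2 in 5 libraries and lower in 10 of 15.

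**Figure D3:**
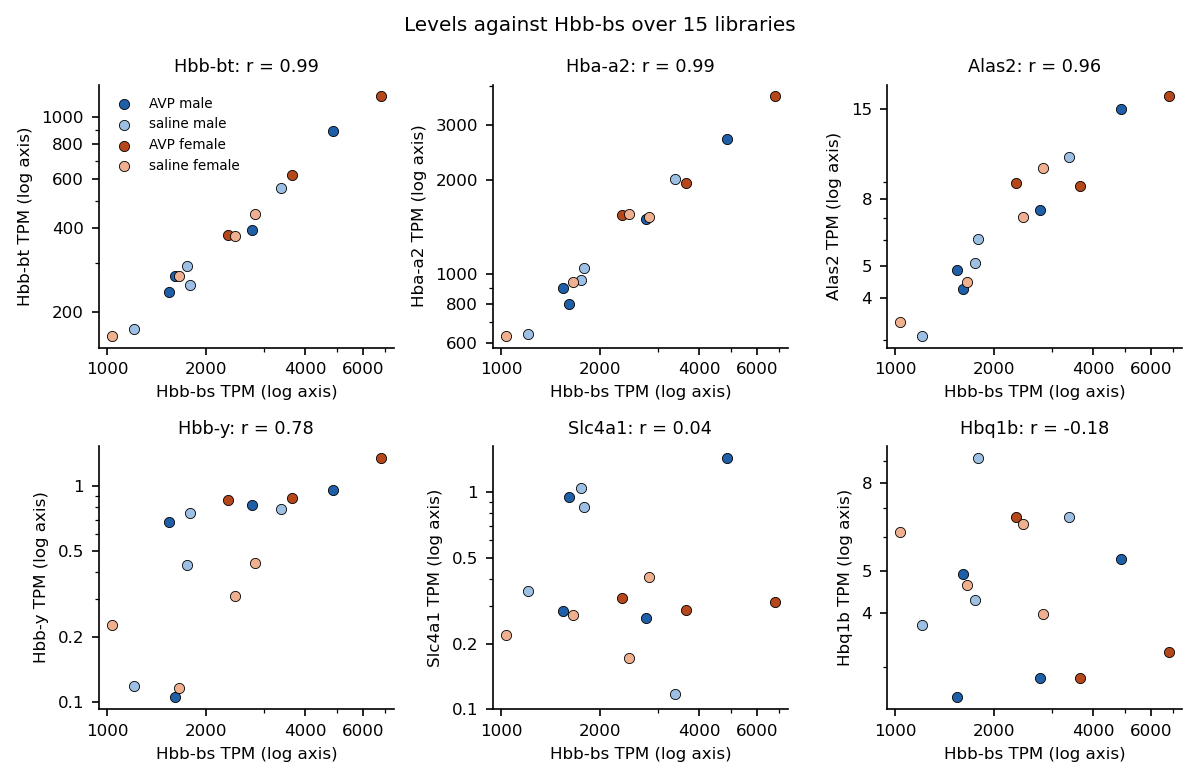
TPM of 6 genes against TPM of Hbb-bs, both on log axes, 1 point per library coloured by group, with Pearson's r of the log2(TPM + 0.5) values over the 15 libraries. Hbb-bt, Hba-a2 and Alas2 lie along a line, Hbb-y scatters around one, and Slc4a1 and Hbq1b show no trend.

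The share of embryonic chains was the measure of the globin switch. Among beta-like transcripts, Hbb-y and Hbb-bh1 together made up 0.00559%, 0.0258%, 0.0386% and 0.0191% in AVP males and 0.0183%, 0.0199%, 0.0370% and 0.0212% in saline males. They made up 0.0207%, 0.0319% and 0.0170% in AVP females and 0.0188%, 0.0110%, 0.0135% and 0.00605% in saline females. The highest and lowest shares were both in AVP males, and the groups overlapped in both genders. The ratio of adult to embryonic beta-globin ran from 2589 in AVP male 3 to 17895 in AVP male 1, with a median of 5240. On a log2 scale with 0.1 TPM added to both sides, this ratio averaged 12.1 ± 0.853 (SD, n = 4) in AVP males, 11.8 ± 0.394 (SD, n = 4) in saline males, 11.99 ± 0.488 (SD, n = 3) in AVP females and 12.6 ± 0.534 (SD, n = 4) in saline females. AVP minus saline was 0.28 in males (two-sided exact permutation test, p = 0.629) and -0.58 in females (exact permutation p = 0.2), and the difference between the genders was -0.86 (exact permutation p = 0.178). None was below 0.05 before adjustment, and over the 18 ratio comparisons made here the adjusted p was 0.823 to 0.853. With 0.5 TPM added in place of 0.1, the difference in females turned to 0.08. Without the library labelled saline male 3, the difference in males was 0.09 and that between the genders was -0.67.

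The corresponding ratio of adult to embryonic alpha-globin averaged 13 ± 0.579 (SD, n = 4) in AVP males and 13.4 ± 1.44 (SD, n = 4) in saline males on the log2 scale. It averaged 12.3 ± 0.296 (SD, n = 3) in AVP females and 13.1 ± 1.097 (SD, n = 4) in saline females. AVP minus saline was -0.40 in males and -0.79 in females (exact permutation p = 0.6 and 0.371), less than the pooled spread within groups of 1.099 and 0.870. Hba-x is listed at 0 in 4 libraries, where the ratio is set by the added 0.1 TPM, and both differences turned positive when 0.5 TPM was added. The difference in males was -0.45 without the library labelled saline male 3.

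The balance between chains was narrower. The ratio of alpha-like to beta-like transcripts was 0.707, 0.758, 0.793 and 0.742 in AVP males and 0.769, 0.812, 0.821 and 0.739 in saline males. It was 0.730, 0.887 and 0.714 in AVP females and 0.864, 0.853, 0.746 and 0.782 in saline females. Beta-like transcripts thus outnumbered alpha-like transcripts in each of the 15 libraries, while the summed globin differed between libraries by far more than this ratio did. The log2 ratio differed between AVP and saline by -0.07 in males (exact permutation p = 0.229) and by -0.07 in females (exact permutation p = 0.543), with a pooled SD within groups of 0.0696 and 0.134. The adjusted p was 0.823 and 0.853. Without the library labelled saline male 3, the difference in males was -0.04.

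Within the beta pair, Hbb-bt made up 12.3% to 15.6% of adult beta-globin. In females this share was 14.6%, 13.96% and 14.9% with AVP and 13.7%, 13.3%, 13.8% and 14.1% with saline. The log2 ratio of Hbb-bt to Hbb-bs was 0.09 higher in AVP than in saline females, with an exact permutation p of 0.0857, the smallest of the 18, and an adjusted p of 0.823. In males the same difference was 0.07 (exact permutation p = 0.514), and 0.02 without the library labelled saline male 3. Within the alpha pair, Hba-a1 made up 35.1% to 39.8% of adult alpha-globin. Both shares rest on how reads of near-identical transcripts were divided.

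Alas2 stood in nearly fixed proportion to globin, at 1.19 to 1.75 TPM per 1000 TPM of summed globin. The log2 ratio differed between AVP and saline by -0.04 in males (exact permutation p = 0.686; 0.01 without the library labelled saline male 3) and -0.13 in females (exact permutation p = 0.486). Slc4a1 ranged from 0.0166 to 0.296 TPM per 1000 TPM of globin, a far wider range. Its log2 ratio differed by -0.06 in males (exact permutation p = 1), or 0.21 without the library labelled saline male 3, and by -0.86 in females (exact permutation p = 0.171).

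**Figure D4:**
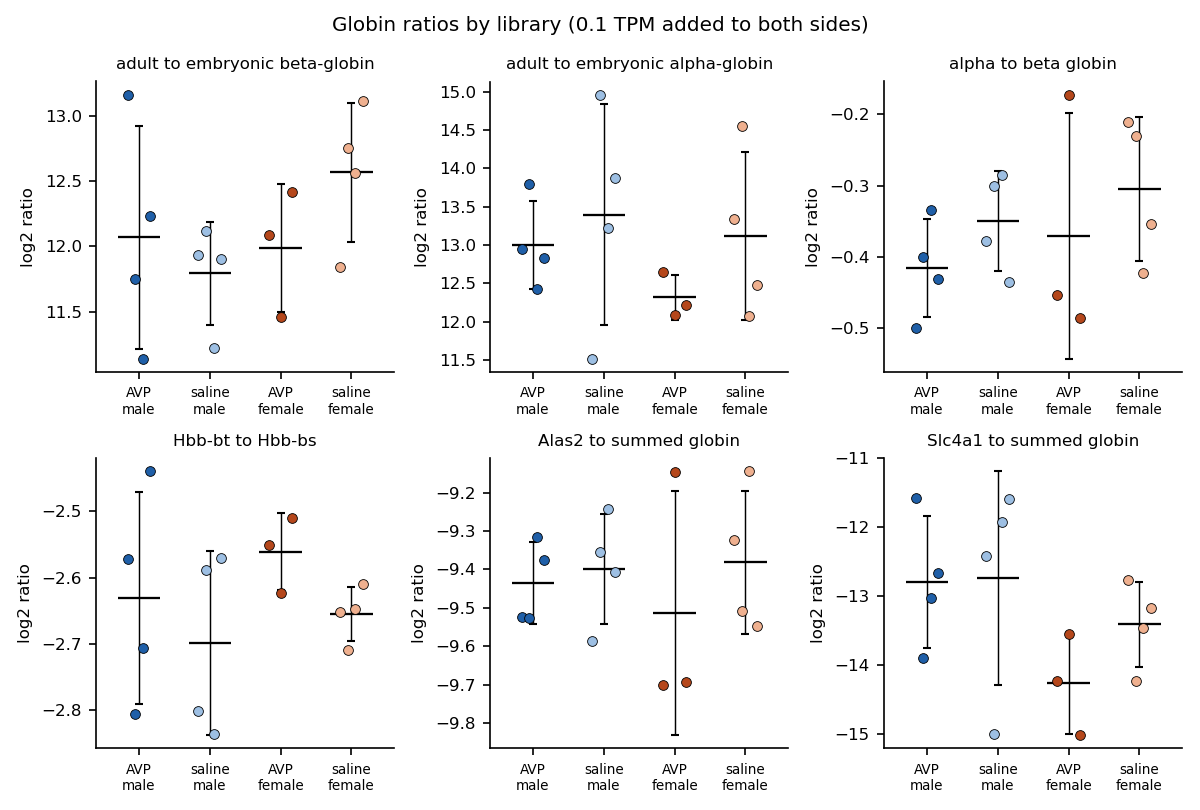
The 6 log2 ratios used here, 1 point per library in the 4 groups, with the mean as a line and the SD as a bar; 0.1 TPM was added to both sides of each ratio, and the axes do not start at 0 because the values are logarithms. The AVP and saline groups overlap in each panel, and the alpha to beta ratio spans only -0.50 to -0.17.

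Whether AVP changed the level of any member was tested in males and females with limma on log2(TPM + 0.5), with p-values adjusted over all genes tested. Of the 9 members, 5 reached the required 1 TPM in at least 50% of the libraries (Hbb-bs, Hbb-bt, Hba-a1, Hba-a2 and Alas2), and Hbb-y, Hbb-bh1, Hba-x and Slc4a1 did not. In males the fit called 1 of 15271 genes, or 0.00655%, and 2057 had an unadjusted p under 0.05. None of the 5 members was called in males, and none had an unadjusted p under 0.05. The difference of AVP from saline males was 0.34 ± 0.41 (SE) for Hbb-bs, 0.41 ± 0.46 for Hbb-bt, 0.28 ± 0.41 for Hba-a1, 0.30 ± 0.43 for Hba-a2 and 0.27 ± 0.43 for Alas2, with adjusted p from 0.711 to 0.805 in limma. The median of all genes tested in males was -0.10. Without AVP male 4 the differences were 0.01 for Hbb-bs, 0.01 for Hbb-bt, -0.06 for Hba-a1, -0.05 for Hba-a2 and -0.08 for Alas2, so that the positive direction in males rested on that library. Without the library labelled saline male 3 they were 0.26 to 0.34.

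In females limma called 0 of 15132 genes, or 0%, and 683 had an unadjusted p under 0.05. All 5 tested members were higher with AVP and were among those with an unadjusted p under 0.05, and none was called. The difference was 1.06 for Hbb-bs (95% interval 0.10 to 2.02), 1.15 for Hbb-bt (0.18 to 2.13), 0.96 for Hba-a1 (0.16 to 1.75), 1.04 for Hba-a2 (0.17 to 1.90) and 0.86 for Alas2 (0.03 to 1.70), each with an adjusted p of 0.999 in limma. Their median of 1.04 stood beside a median of -0.05 over all genes tested. Since these 5 genes rose and fell together across libraries, they are not 5 independent observations. In exact permutation tests on single genes the p was 0.143 for Hbb-bs, 0.114 for Hbb-bt, 0.114 for Hba-a1, 0.143 for Hba-a2 and 0.171 for Alas2, where 3 against 4 libraries cannot give less than 0.0286. Without AVP female 3 the differences were 0.65, 0.72, 0.63, 0.67 and 0.58 in the same order. The unadjusted limma p then ran from 0.107 for Hba-a1 to 0.175 for Alas2. With the run of sample numbers as a covariate, the unadjusted limma p was 0.053 for Hbb-bs and 0.065 for Alas2. It stayed under 0.05 for Hbb-bt, Hba-a1 and Hba-a2 with that covariate.

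The response of females minus that of males was the interaction term of the fit over both genders. It called 0 of 15078 genes, or 0%, with 624 at an unadjusted p under 0.05. For the members it was 0.71 ± 0.64 (SE) for Hbb-bs, 0.74 ± 0.70 for Hbb-bt, 0.68 ± 0.59 for Hba-a1, 0.74 ± 0.64 for Hba-a2 and 0.59 ± 0.62 for Alas2, each with an adjusted p of 0.896 in limma. A difference between the genders was thus not shown. The fits over both genders take no account of dams shared by a male and a female library. Without AVP male 4 the difference between the genders was 0.94 for Alas2 to 1.14 for Hbb-bt, and without AVP female 3 it was 0.31 to 0.38. Without the library labelled saline male 3 it was 0.57 for Alas2 to 0.81 for Hbb-bt. With gender as a term, the fit over both genders called 0 of 15078 genes, or 0%, with 1564 at an unadjusted p under 0.05, and the members differed by 0.54 for Alas2 to 0.75 for Hbb-bt (limma, adjusted p 0.478 to 0.504).

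**Figure D5:**
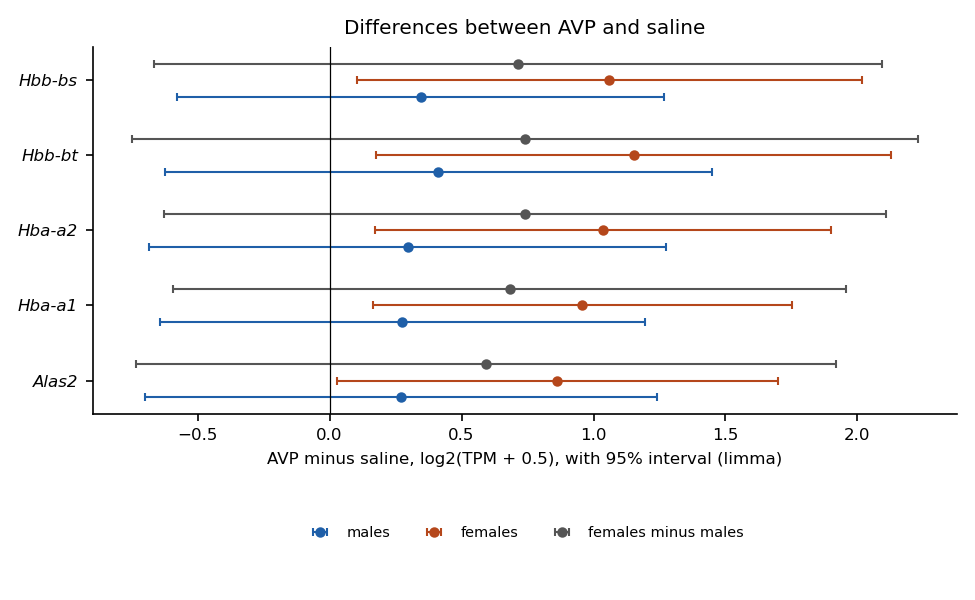
AVP minus saline on the log2(TPM + 0.5) scale for the 5 tested members, in males, in females and as the difference between them, with the estimate as a point and its 95% interval from limma as a bar. The female estimates run from 0.86 to 1.15 with intervals above 0 before adjustment, and the intervals in males and of the difference include 0.

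The members below the filter were compared gene by gene with the exact permutation test. Hbb-y averaged 1.03 ± 0.278 TPM (SD, n = 3) in AVP females and 0.273 ± 0.137 TPM (SD, n = 4) in saline females, a ratio of means of 3.79. On the log2(TPM + 0.5) scale, which understates changes of such low genes, the difference was 0.99 with an exact permutation p of 0.0286, at the lower limit of this design. That p is not adjusted for the number of members compared. In limma without the filter, Hbb-y in females had an adjusted p of 0.952. Among the 9 members, Hbb-y in females was the only case, in males or in females, of AVP and saline values that did not overlap. AVP females lay above saline females in 2.78% of the genes tested and in 2.51% of genes with a mean of 0.1 to 1 TPM in females. In males the difference of Hbb-y was 0.14 (exact permutation p = 0.657), 0.26 without the library labelled saline male 3 and -0.00 without AVP male 4. AVP males lay above saline males without overlap in 0.733% of the genes tested and for none of the members. The difference between the genders was 0.85 (exact permutation p = 0.141), and 0.73 without the library labelled saline male 3. Hbb-y also followed Hbb-bs across libraries. The embryonic share of beta-like transcripts given above averaged 0.0232% in AVP females and 0.0123% in saline females, a ratio of means of 1.88, and the groups overlapped through AVP female 3 (0.0170%) and saline female 1 (0.0188%). The part of the adult globin level in the Hbb-y difference was not tested.

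For Hba-x the difference was 0.80 in females (exact permutation p = 0.114) and 0.23 in males (exact permutation p = 0.486), with libraries listed at 0 in both saline groups, and 0.23 in males without the library labelled saline male 3. For Slc4a1 it was 0.08 in females (exact permutation p = 0.486) and 0.15 in males (exact permutation p = 0.714), or 0.29 without the library labelled saline male 3. Hbb-bh1 gave no difference that could be read, being listed at 0 in all females and in 6 of 8 males. For Hbq1b the difference was -0.35 in females (exact permutation p = 0.4) and -0.53 in males (exact permutation p = 0.2).

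Markers of other cell types were read beside these results, since several moved with AVP in females as well. In females 9 of 9 markers of meningeal fibroblasts, the cells of the membranes around the brain, were higher with AVP, with a median difference of 0.86, and 8 of them had an unadjusted p under 0.05. All 5 tested markers of border macrophages were higher (median 1.03), as were 9 of 9 tested markers of endothelium (median 0.38) and 6 of 6 tested markers of choroid plexus epithelium (median 1.52). None of these genes was called by limma. Over all genes tested in females the median was -0.05, and 683 of 15132 had an unadjusted p under 0.05. The study, with a different tool, did list Col1a1, Col1a2, Dcn, Postn, Slc6a13, Mrc1 and Enpp2 among the genes it called in females. Those calls came from the same libraries, and the marker lists were chosen with earlier results known. The counts of markers are therefore not independent of the study's calls. The summed level of the meningeal markers was 166 to 229 TPM in AVP females and 102 to 120 TPM in saline females. In males it was 103 to 218 TPM with AVP and 50.8 to 217 TPM with saline. The summed choroid plexus markers, among which Ttr, the transthyretin gene, reached 2197 TPM, ran from 59.5 to 2302 TPM in AVP females and from 26.0 to 974 TPM in saline females. The summed border macrophage markers were 48.8 to 56.3 TPM in AVP females and 16.5 to 30.5 TPM in saline females, and the endothelial markers 237 to 243 TPM and 135 to 214 TPM. Every marker of these 4 lists was above 0 in at least 1 library. In males 8 of 9 meningeal and 6 of 6 border macrophage markers were higher with AVP (medians 0.21 and 0.07), and 1 of 10 endothelial and 0 of 4 choroid plexus markers were. Markers of the forebrain itself were higher in 9 of 11 cases in females and 2 of 11 in males (medians 0.02 and -0.07). The part of tissue composition in the globin differences was not tested.

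Of the 6 liver markers, Ttr is given above with the choroid plexus, and Apoa1 was at 0.366 to 1.26 TPM. Alb was listed at 0 in 10 of 15 libraries with a highest value of 0.0881 TPM, and Afp was listed at 0 in 10. Serpina1a and Fgb, which complete the list, were listed at 0 in all. Of the granulocyte and monocyte markers, white cells of the blood, 4 were tested, 3 higher in females and 2 in males, with none called. Their sum ranged from 13.4 to 40.6 TPM and correlated with summed globin at r = 0.748 over the 15 libraries, a description only. Of single genes in that list, the most abundant, Prtn3, gave r = -0.088 with summed globin, and Lyz2 gave r = 0.600. S100a8, a neutrophil calcium-binding protein, gave r = 0.726, and S100a9, its partner, r = 0.718, the highest 2 of the list. Among all genes ranked below, 207 had r of at least 0.7 and 439 had r of -0.7 or lower.

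The genes of the red cell programme beyond the members were read from lists. Of 22 genes of the red cell membrane and surface, 12 were tested in males (2 higher, 10 lower) and 11 in females (6 higher, 5 lower), with none called. Their most abundant members in this tissue were Add2, Epb41 and Dmtn, which encode proteins of the membrane skeleton and are also made by neurons. The summed list correlated with summed globin at r = -0.513, and Dmtn alone at r = -0.911.

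Of 20 genes of haem synthesis and iron import, all were tested, 5 higher and 15 lower in each gender, with none called. Ireb2, an iron sensor, was at 48.8 to 73.0 TPM, and Alas1, the form of the first haem enzyme used outside red cells, at 43.7 to 66.2 TPM. Alas1 gave r = -0.0921 with summed globin, unlike Alas2. Of 17 red cell enzymes and chaperones present, 12 were tested, 6 higher and 6 lower in males and 4 higher and 8 lower in females, with none called. Prdx2, a peroxiredoxin, led that list at 761 to 971 TPM.

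Of 14 erythroid regulators, 8 were tested, 2 higher in males and 4 higher in females, with none called. The factors Gata1 and Klf1, chosen after their values were seen, reached at most 0.165 and 0.394 TPM. All 27 genes listed as regulators of globin switching were tested, 8 higher and 19 lower in males and 15 higher and 12 lower in females, with none called. The most abundant was Hdac2, a histone deacetylase, at 300 to 376 TPM. Bcl11a, a repressor of embryonic and fetal globin genes that neurons also make, chosen after its values were seen, was at 144 to 197 TPM and differed by -0.19 in males (limma, adjusted p = 0.342) and by 0.07 in females (limma, adjusted p = 0.999). The medians of these 5 lists ran from -0.13 to 0.07, beside -0.10 in males and -0.05 in females over all genes tested.

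Among the other globin family genes only Cygb, cytoglobin, was tested, at 8.63 to 12.7 TPM, and it did not differ beyond the spread between libraries (-0.13 in males and -0.15 in females). Neuroglobin, Ngb, was at 0.289 to 1.44 TPM. Myoglobin, Mb, was listed at 0 in 12 of 15 libraries. Of 14 genes that handle haem and iron, 12 were tested in males (8 higher, 4 lower) and 11 in females (5 higher, 6 lower), with none called. Their most abundant members were the ferritin chains Ftl1, at 1781 to 2262 TPM, and Fth1, at 817 to 1178 TPM, which gave r = 0.0719 and r = -0.169 with summed globin. The 3 tested platelet markers gave 1 higher and 2 lower in both genders. Microglial markers were higher in 7 of 8 cases in females and 2 of 8 in males, with none called.

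The genes most like the globins in pattern were ranked by the correlation of log2(TPM + 0.5) with log2 of the summed globin TPM over the 15 libraries, among 15078 genes. Alas2 came first with r = 0.972, and with r = 0.964 after the mean of each group was taken away. The next were Ndc80 (r = 0.928), a kinetochore protein, Melk (r = 0.920), a kinase of dividing cells, and Cdk1 (r = 0.916), the mitotic kinase. Then came the unnamed gene Gm4739 (r = 0.913), the kinase Pbk (r = 0.912), the growth factor midkine, Mdk (r = 0.911), the replication fork protein Tipin (r = 0.908), cyclin B2, Ccnb2 (r = 0.907), and the kinetochore protein Spc25 (r = 0.901). In all, 10 genes had r of at least 0.9 and 5 had r of -0.9 or lower. Alas2 ran from 3.09 to 16.4 TPM, Cdk1 from 38.01 to 80.5 TPM and Mdk from 118 to 251 TPM. The genes most like Hbb-y were Cenph (r = 0.873), a centromere protein, Adamts9 (r = 0.872), an extracellular protease, Lama1 (r = 0.872), a laminin chain of basement membranes, Eva1c (r = 0.869), and Tpm4 (r = 0.868), a tropomyosin.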

How the data were processed

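Messenger RNA was sequenced from 15 E18 dorsal forebrain libraries. Per the labels and methods, the authors trimmed reads with Trim Galore 0.4.1 and quantified GENCODE mouse transcripts with Kallisto 0.43.1. They deposited 1 value for each of 133849 transcripts and library without naming a unit. Each column sums to 1e+06, so the deposited values were read as TPM, scaled by the authors for transcript length and library total only. Read depth is not given by TPM. Transcripts were summed to genes with GENCODE M21, and 404 transcripts without a gene were left out. Promoters came from RefSeq on GRCm38.p6.

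Genes that reached 1 TPM in 50% or more of the libraries were tested with limma 3.58.1 (trend) in R 4.3.3 on log2(TPM + 0.5), by gender as in the study, with Benjamini-Hochberg adjustment and a threshold of 0.05. The study's own tool, sleuth, works on resampled estimates that were not used here. With it, the study reported genes changed by AVP in males and in females, so the counts called here differ from its own. Ratios and single members used two-sided exact permutation tests. Groups came from the labels, and libraries were numbered in accession order, which pairs nothing. P-values measure the spread between libraries. Those of tests over both genders take no account of dams shared by male and female libraries. The fit was checked on simulated data. The members, the lists of genes and the tests were chosen with earlier results of these data known. Named genes were the members, all other haemoglobin genes, the 10 genes most like summed globin and the 5 most like Hbb-y. Up to 4 abundant genes of each list were also named, with the liver list in full and the markers that the study itself listed as changed. Others named are said to have been chosen after their values were seen. Alternatives were other added values, filters, scalings, a covariate for the run of sample numbers, protein-coding transcripts alone, and leaving out each library.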

Additional observations from a re-analysis of the deposited data

Results flagged for a closer look

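In the 47 groups of 4 libraries examined (members, summed globin and ratios), 2 held a library far from the other 3, where about 2.4 are to be found by chance at 1 in 20. Both concern Hbb-bh1: AVP male 4 had 0.137 TPM and saline male 1 had 0.135 TPM, and the other 3 libraries of each group were listed at 0. In such a group any single reading above 0 is flagged, whatever its size. The chance figure therefore says nothing about these 2 flags.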

How the results depend on the processing

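No member was called by limma under any setting tried. With 0.5 TPM added, the adult to embryonic differences turned to 0.0825 (beta, females), 0.0559 (alpha, males), 0.203 (alpha, females) and 0.147 (alpha, females minus males). With protein-coding transcripts alone, the alpha to beta difference of females minus males turned to 0.000375 and the Slc4a1 to globin difference in males to 0.304, which was 0.0233 with 0.01 TPM added. The count of genes called in males was 0 with a pseudocount of 1, with 5 TPM required in every library, with the run of sample numbers as a covariate and with 1 fit of all 15 libraries, and 2 without limma's trend. Leaving out each library in turn, the count of genes ran from 0 to 6 in males, 0 to 6 in females, 0 to 1 for the interaction and 0 to 1 over both genders, with 5 in males without AVP male 4, 0 without the library labelled saline male 3 and 1 in females without AVP female 3. Over the same exclusions, differences in males ran from -0.0872 to 0.587 for the adult to embryonic beta ratio, -1.02 to 0.125 for the alpha ratio, -0.100 to 0.0144 for Alas2 to globin and -0.815 to 0.319 for Slc4a1 to globin. For single genes in males they ran from -0.0799 to 0.423 (Hbb-y), -0.0863 to 0.0873 (Hbb-bh1), -0.105 to 0.351 (Slc4a1), -0.0786 to 0.558 (Alas2), -0.0576 to 0.565 (Hba-a1) and -0.0546 to 0.601 (Hba-a2). For females minus males they ran from -0.919 to 0.229 (adult to embryonic alpha), -0.0992 to 0.0572 (alpha to beta), -0.0331 to 0.0892 (Hbb-bt to Hbb-bs), -0.0873 to 0.0863 (Hbb-bh1) and -0.268 to 0.188 (Slc4a1). The cause of these changes was not tested. The Hbb-y difference in females ran from 0.846 to 1.09, where fewer libraries cannot give an exact permutation p under 0.05, and that of females minus males had an exact permutation p of 0.049 without saline male 1, with a difference of 1.07. Across all other settings, 368 values counted as unchanged, 7 counted as changed in direction, and the other 5 were the counts in males given above. A value with a p counted as unchanged if it kept direction and side of the threshold. A difference without a p counted so if it moved by less than the pooled SD within groups, whatever its sign. The alpha to beta difference of females minus males, -0.00017 in the main setting, thus counted as unchanged where it reached 0.00157. No paired analysis was possible because the labels give no shared replicate numbers. TPM values do not hold the depth of the single libraries, so counting error could not be given for any gene.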
